A study of Mus musculus with 6 samples.

Results

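The 10 genes described here encode the core of the TGF-beta pathway: the ligands Tgfb1, Tgfb2 and Tgfb3, the receptors Tgfbr1, Tgfbr2 and Tgfbr3, the transducers Smad2, Smad3 and Smad4, and the inhibitory Smad7. They were taken by name from a table of 23594 genes, all 10 were found, and all 10 were among the 20114 genes that passed a filter on low counts. The libraries were made from the apical part of the furcation development region (FDR), the tissue between the forming roots, cut by laser capture from lower molars of C57BL/6 mice at 4.5 days of age (PN4.5). There were 3 libraries labelled Wild type, which the study calls controls, and 3 from Lhx6-/- littermates. The Lhx6-/- mice were homozygous for a constitutive Lhx6-Cre ER knock-in allele that abolishes the gene. Lhx6 is a LIM-homeodomain transcription factor of the dental mesenchyme, and the allele is carried from conception in every tissue. Each library pooled several molars, and no source used here says which libraries share a litter. The p-values below therefore measure the spread between libraries, which may in part be technical.

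TGF-beta ligands are secreted as latent dimers bound to matrix proteins and must be released before they act. The freed dimer binds the type II receptor Tgfbr2, which recruits and activates the type I receptor Tgfbr1, while Tgfbr3 (betaglycan) is a co-receptor that presents ligand, above all the Tgfb2 protein. Active Tgfbr1 phosphorylates Smad2 and Smad3, which join Smad4 and enter the nucleus, and Smad7 blocks the receptor in a negative feedback loop. In the developing tooth root, TGF-beta signalling is known for its part in the differentiation of odontoblasts, the dentin-forming cells, from the dental mesenchyme.

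Lhx6 RNA was lower in the Lhx6-/- libraries but still present. Lhx6 stood at 27.8, 18.2 and 21.9 CPM (counts per 1000000 counts of the library, after scaling) in control libraries 1, 2 and 3, and at 12.8, 9.82 and 10.5 in Lhx6-/- libraries 1, 2 and 3, a fold change of 0.487 (95% interval 0.384 to 0.619) with an adjusted p of 0.0210 by edgeR's quasi-likelihood test. Library totals ran from 60132323 to 76157433 estimated counts, and each of the 10 TGF-beta genes had at least 1594 counts in every library. The captured tissue was mixed. Ameloblast genes, led by the enamel gene Amelx, summed to between 114978 and 146335 CPM. Odontoblast genes summed to between 69935 and 90717 CPM, most of it from the collagen gene Col1a1, with a mean of 78370 CPM. Col1a1 is also among the TGF-beta response genes listed further below, so this sum is largely that of 1 gene. Osteoblast genes, led by Bglap, summed to between 5010 and 5876 CPM. The ranges of all these sums overlapped between the genotypes. The 9 dental epithelium markers, led by Krt5, summed to 1070 to 1684 CPM in controls and 761 to 886 CPM in Lhx6-/- libraries, and 5 of the 9 were lower and 0 higher at p under 0.05. The 6 endothelial markers, led by Cdh5, went the other way, with sums of 233 to 244 CPM in controls and 270 to 316 CPM in Lhx6-/-, and 4 of the 6 were higher at p under 0.05. The 6 pericyte or smooth muscle markers, led by Rgs5, summed to 370 to 399 against 471 to 578 CPM, and the 8 dental mesenchyme markers, led by Vim, to 1494 to 1582 against 1698 to 1729 CPM. The 4 Y-linked genes, led by Eif2s3y, summed to between 14.6 and 58.0 CPM in controls and between 55.1 and 92.1 CPM in Lhx6-/-, ranges that overlapped, and 1 of the 4 was higher at p under 0.05. The 5 erythroid markers, led by Hbb-bs, summed to 2960 to 3689 CPM in controls and 1590 to 2322 CPM in Lhx6-/-, and 4 of the 5 were lower at p under 0.05. Since these are bulk samples, fewer cells of a type and less RNA per cell cannot be told apart.

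None of the 10 genes changed by the rule of at least 1.5-fold with p under 0.05, which 3.28% of all genes tested met, and none had an adjusted p under 0.05, which 0.403% had. These counts were by edgeR, and were also 0 by DESeq2 and limma. Tgfb3 alone had an unadjusted p under 0.05, against 9.81% of all genes tested. Which genes were past that unadjusted threshold depended on the fit. They were Tgfb3 and Tgfbr3 by limma voom, and Tgfbr3 and Smad4 without control library 2. With the mean log2 CPM of the dental epithelium markers as a covariate they were Tgfbr1, Tgfbr3 and Smad4. The summed epithelial level did not overlap between the genotypes, so this term is hard to tell apart from genotype. Of the 17 planned refits, Tgfb3 was past the unadjusted threshold in 15, Tgfbr3 in 4, Smad4 in 2 and Tgfbr1 in 1. In none of these refits did any of them have an adjusted p under 0.05. For each of the 10 genes the 95% interval of the fold change lay within 1.5-fold in both directions, as it did for 54.2% of all genes tested; these intervals are for single genes and are not corrected for their number. The lowest bound was a log2 fold change of -0.20, for Smad2, and the highest was 0.42, for Tgfb3. The differences leaned to one side without being large: 8 of the 10 log2 fold changes were above 0, with a median of 0.08, against 49.7% of all genes tested and a median of -0.0019. The 6 libraries did not overlap between genotypes for Tgfb3, Tgfbr3 and Smad3, all higher in Lhx6-/-. Among all genes tested 15.5% had groups that did not overlap.

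**Figure D1:**
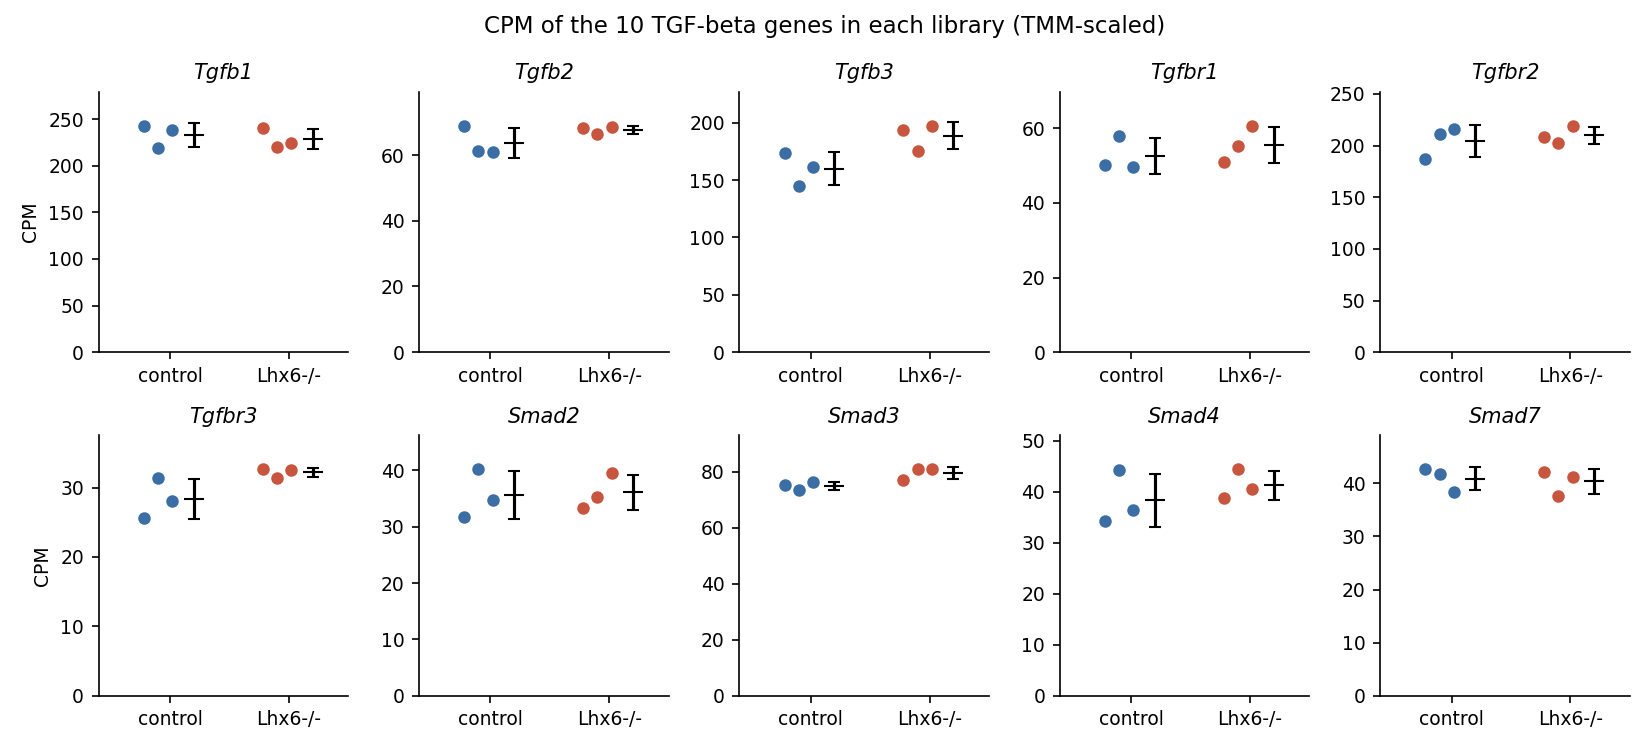
CPM (vertical axis, from 0) of the 10 TGF-beta genes in the 3 control and 3 Lhx6-/- libraries; each point is a library, in the order 1 to 3, and the bar beside it is the mean with its SD. The genotypes are apart for Tgfb3, Tgfbr3 and Smad3 and share part of their range for the other 7 genes.

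Among the ligands, Tgfb1, the form best known from platelets, bone matrix and immune cells, showed the smallest difference. Its level was 243, 219 and 238 CPM in controls and 241, 221 and 225 CPM in Lhx6-/- libraries. The genotypes covered almost the same range. The fold change was 0.981 (95% interval 0.877 to 1.10; log2 -0.03, SE 0.07; edgeR adjusted p = 0.952). The gene lies on chromosome 7 at 25687002 to 25705077 on the plus strand of GRCm38.

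Tgfb2, whose protein depends most on the co-receptor Tgfbr3, stood at 68.9, 61.1 and 61.0 CPM in controls and at 68.1, 66.4 and 68.6 CPM in Lhx6-/-. Control library 1 was the highest of all 6, so the groups overlapped, and the 3 Lhx6-/- libraries lay close together. The log2 fold change was 0.09 (95% interval -0.07 to 0.24, edgeR adjusted p = 0.768). The gene lies on chromosome 1 at 186622792 to 186705989 on the minus strand.

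Tgfb3, the ligand known from palate fusion and from embryonic mesenchyme, stood at 174, 145 and 161 CPM in controls and at 194, 175 and 197 CPM in Lhx6-/-. All 3 Lhx6-/- libraries were above the highest control, though Lhx6-/- library 2 exceeded control library 1 by little. The difference was 1.18-fold (95% interval 1.04 to 1.34; log2 0.24, SE 0.08). It was past the unadjusted threshold, but the adjusted p over all genes was 0.346 by edgeR and the gene ranked 848 of 20114 by p, so it did not pass. It lies on chromosome 12 at 86056745 to 86079041 on the minus strand. Without control library 2, the lowest of the 6, the log2 fold change was 0.17. With the mean log2 CPM of the dental epithelium markers as a covariate it was 0.09 (edgeR adjusted p = 0.895). With that of the Y-linked genes it was 0.42 (edgeR adjusted p = 0.0664).

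Since a ratio of genes within a library does not depend on how libraries are scaled, the ligands were also set against each other per length. Divided by exon length, the Tgfb3 level was 1.07, 0.988 and 1.01 times that of Tgfb1 in controls and 1.20, 1.18 and 1.31 times in Lhx6-/- libraries. All 3 Lhx6-/- ratios were above all controls, a log2 difference of 0.27. The exact permutation p, 2-sided, was 0.1, the smallest that 3 libraries against 3 allow, and 0.450 after adjustment over the 9 ratios compared. Tgfb3 made up 44.3 to 46.1% of the summed ligand level per kb in controls and 48.4 to 50.8% in Lhx6-/-. Tgfb1 made up 43.2 to 44.8% and 38.9 to 40.9%, whereas the share of Tgfb2 ranged from 9.98 to 10.9% with the genotypes interleaved. The sizes of these shares and of the ratio rest on the annotated exon lengths. In CPM, not divided by length, Tgfb1 was above Tgfb3 in every library. The other 8 ratios, among the ligands, among the receptors, and of Smad3 to each other Smad, overlapped between the genotypes. Their log2 differences ran from -0.15 to 0.15.

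Both signalling receptors overlapped between the genotypes. Tgfbr2, which binds the ligand, was at 187, 211 and 216 CPM in controls and at 208, 203 and 219 CPM in Lhx6-/-, a log2 fold change of 0.04 (95% interval -0.13 to 0.21, edgeR adjusted p = 0.936). Tgfbr1, the kinase that phosphorylates the Smads, was at 50.1, 58.0 and 49.6 CPM in controls and at 50.9, 55.2 and 60.7 CPM in Lhx6-/-. Lhx6-/- library 3 was the highest for Tgfbr1, and the log2 fold change was 0.08 (95% interval -0.11 to 0.27, edgeR adjusted p = 0.851). Tgfbr2 lies on chromosome 9 at 116084293 to 116175360, minus strand, and Tgfbr1 on chromosome 4 at 47353222 to 47414931, plus strand.

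Tgfbr3, the co-receptor, was at 25.6, 31.42 and 28.0 CPM in controls and at 32.6, 31.43 and 32.5 CPM in Lhx6-/-. The Lhx6-/- libraries differed little from each other, and control library 2 reached almost the lowest of them, so the groups were barely apart. The log2 fold change was 0.18 (95% interval -0.01 to 0.38, edgeR adjusted p = 0.547). The gene lies on chromosome 5 at 107106570 to 107289629, minus strand. The value moved to 0.31 (edgeR adjusted p = 0.529) with the epithelial covariate and to 0.02 (adjusted p = 0.970) with the Y-linked covariate.

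**Figure D2:**
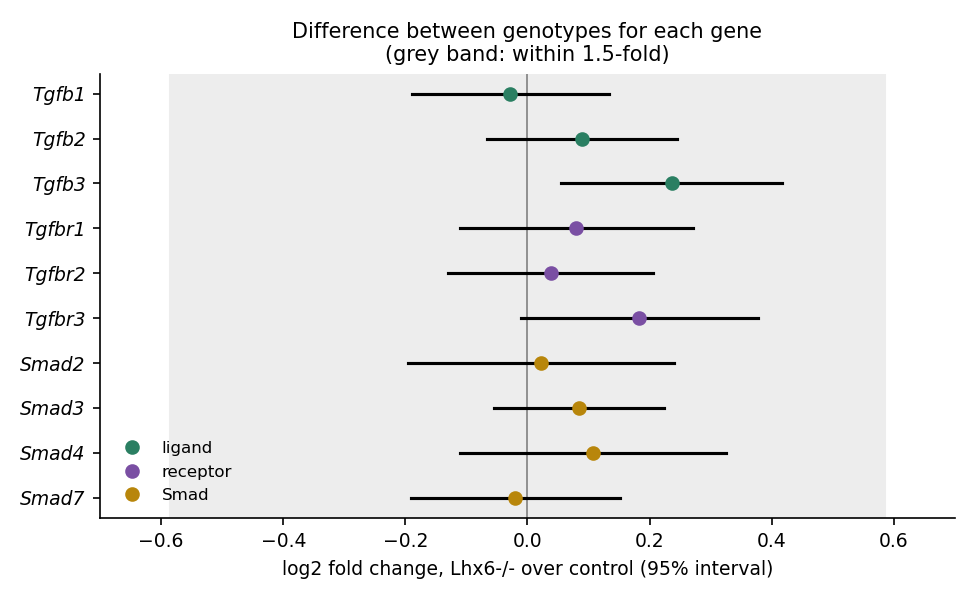
Log2 fold change of Lhx6-/- over control (horizontal axis) with its 95% interval from edgeR for each of the 10 genes, coloured by role; the grey band marks changes of less than 1.5-fold. Every interval lies inside the band, and only that of Tgfb3 does not reach 0.

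The receptor-regulated Smads differed in their spread. Smad3 was at 75.2, 73.6 and 76.5 CPM in controls and at 77.1, 80.9 and 80.9 CPM in Lhx6-/-, the steadiest of the 10 genes among controls, with a coefficient of variation of 1.93%. Its groups did not overlap, but the distance was small, with a log2 fold change of 0.08 (95% interval -0.05 to 0.22, edgeR adjusted p = 0.745). Smad2 was at 31.8, 40.2 and 34.7 CPM in controls and at 33.4, 35.3 and 39.6 CPM in Lhx6-/-, with control library 2 the highest and control library 1 the lowest of all 6. Its log2 fold change was 0.02 (95% interval -0.20 to 0.24, edgeR adjusted p = 0.975).

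Smad4, the shared partner that BMP signals also use, was at 34.3, 44.2 and 36.3 CPM in controls and at 38.8, 44.3 and 40.6 CPM in Lhx6-/-. Control library 2 and Lhx6-/- library 2 stood above the rest, and Smad4 varied most among the controls, with a coefficient of variation of 13.7%. The log2 fold change was 0.11 (95% interval -0.11 to 0.33, edgeR adjusted p = 0.812). It moved to 0.33 (edgeR adjusted p = 0.348) with the epithelial covariate and to -0.18 with the Y-linked covariate. The epithelial sums were apart between the genotypes, and the Y-linked sums overlapped little. With 6 libraries such fits separate genotype poorly from either level, so these shifts do not settle a direction.

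Smad7, the feedback inhibitor that TGF-beta and BMP signals themselves induce, was at 42.6, 41.7 and 38.4 CPM in controls and at 42.1, 37.7 and 41.3 CPM in Lhx6-/-. The libraries of the genotypes were interleaved, and the log2 fold change was -0.02 (95% interval -0.19 to 0.15, edgeR adjusted p = 0.969). Smad3 lies on chromosome 9 at 63646767 to 63757994, minus strand. On chromosome 18, Smad4 lies at 73639009 to 73703780 on the minus strand, Smad7 at 75367529 to 75395935 and Smad2 at 76241580 to 76310963, both on the plus strand.

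Levels of the 10 genes were compared with each other as CPM per kb of annotated exon (GENCODE vM21), so that longer genes do not appear higher. Tgfb3 and Tgfb1 led, with 47.3 ± 4.2 and 46.3 ± 2.5 CPM per kb in controls (mean ± SD, n = 3), and their control ranges overlapped. In Lhx6-/- libraries Tgfb3 was at 55.7 ± 3.5 and Tgfb1 at 45.4 ± 2.1 CPM per kb, with ranges apart. Tgfbr2 followed at 24.99 ± 1.9 CPM per kb in controls, apart from Tgfb1 above it and from Smad3 below it. Smad3 had 13.5 ± 0.26 CPM per kb and Tgfb2 10.99 ± 0.78, also apart. The next genes, Tgfb2, Smad4 (10.3 ± 1.4), Smad7 (9.05 ± 0.49) and Tgfbr1 (8.05 ± 0.72), each overlapped the neighbour in that order among controls. Tgfbr3 (4.33 ± 0.45) and Smad2 (4.05 ± 0.49) were the lowest and overlapped each other. Summed over the 3 genes, the ligands gave 96.8 to 111 CPM per kb in controls, and the receptors 34.4 to 39.4. The order of the 10 means was the same in Lhx6-/- libraries. The lengths cover every annotated isoform, and a gene that uses a short isoform here would have a higher level per length than shown.

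**Figure D3:**
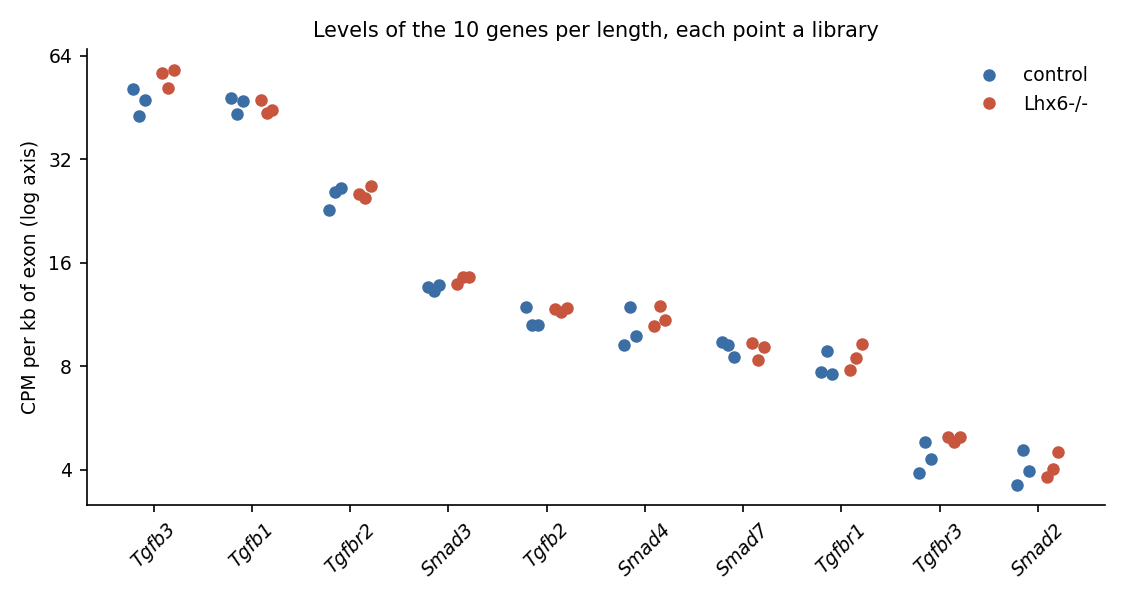
CPM per kb of exon (vertical axis, log scale) of the 10 genes in the order of their mean over 6 libraries; each point is a library, blue for control and red for Lhx6-/-. Tgfb3 and Tgfb1 are highest and Tgfbr3 and Smad2 lowest, and no gene moves to another place in the order with genotype.

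The genes whose pattern over the 6 libraries was most like that of Tgfb3 were sought among 15120 others with a mean of at least 1 CPM, by Pearson's r of log2 CPM. They were Atl1, an atlastin GTPase of the endoplasmic reticulum (r = 0.998), Pofut1, the enzyme that adds O-fucose to Notch receptors (r = 0.989), and Pakap (r = 0.985). In all, 39 genes had an r above 0.95. All these values share the same 6 libraries and their scaling, so they describe a likeness and no more.

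Around the 10 genes, 112 others of the pathway were listed by function, 109 were in the table and 107 were tested. Of these, 15 were higher in Lhx6-/- at p under 0.05 and 0 were lower, against 4.75% of all genes tested that were higher at that p. The lists were chosen with earlier results of these data known, so this comparison and those by list below are not independent of the data. The fold changes were mostly small, with a median log2 fold change of 0.06 over the 107. By the rule of at least 1.5-fold with p under 0.05, 4 of the 107 were higher and 0 lower: Tgfbi, Lrrc32, Amhr2 and Edn1. That share is close to the 3.28% of all genes tested. Of the 107, Tgfbi alone had an adjusted p under 0.05 by edgeR, whereas DESeq2 called 5 of them: Tgfbi, Lrrc32, Fbn1, Col3a1 and Timp3. DESeq2 also called more genes in general, with 315 of all 20114 tested against 81 by edgeR. A fit with the endothelial marker level as a further term was added once the data had been seen. In it 1 of the 107 and 0 of the 10 core genes had p under 0.05. Of all genes tested 1 had an adjusted p under 0.05, against 81 without the covariate. The endothelial level itself did not overlap between the genotypes, and in this fit the interval bounds of the 10 core genes widened to -0.59 and 0.85.

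**Figure D4:**
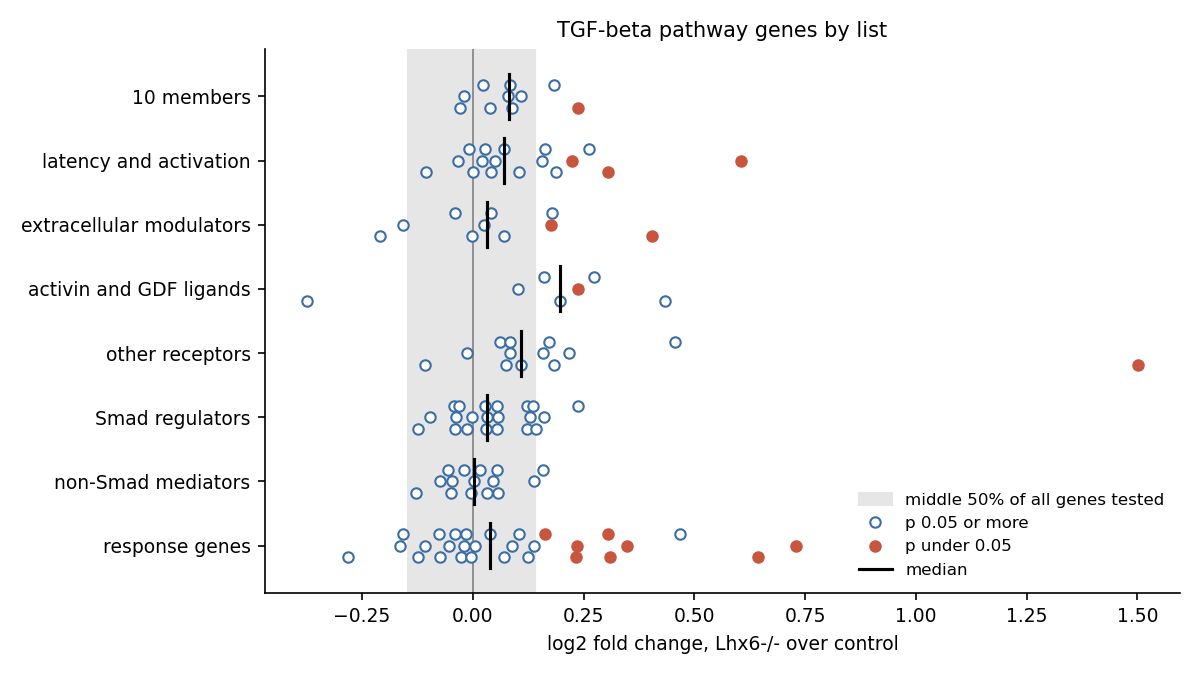
Log2 fold change of Lhx6-/- over control (horizontal axis) of the 10 genes and of the tested genes of 7 pathway lists, each point a gene, filled where the unadjusted edgeR p was under 0.05; black bars are list medians and the grey band holds the middle 50% of all genes tested. Every filled point lies above 0, and most open points lie in or near the band.

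Genes that hold TGF-beta latent or release it formed a list of 17, all tested, with 3 higher and 0 lower at p under 0.05 and a median log2 fold change of 0.07. Lrrc32 (GARP), which tethers latent TGF-beta to the cell surface, was at 14.4, 11.5 and 12.2 CPM in controls and at 22.5, 18.01 and 17.5 CPM in Lhx6-/-. The groups were well apart, and the difference was 1.52-fold (95% interval 1.26 to 1.84), with an edgeR adjusted p of 0.0844. The log2 fold change, 0.61, was 0.38 (adjusted p = 0.557) with the epithelial covariate and 0.15 with the endothelial one. Fbn1, the fibrillin of the microfibrils that store latent complexes, had a log2 fold change of 0.30 (95% interval 0.12 to 0.49). Ltbp4, a latent TGF-beta binding protein, had 0.22 (95% interval 0.03 to 0.42). The adjusted p was 0.219 for Fbn1 and 0.441 for Ltbp4.

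Of 10 extracellular modulators, 2 were higher and 0 lower at p under 0.05, with a median log2 fold change of 0.03. These were Vasn (vasorin), a membrane protein that binds TGF-beta, with a log2 fold change of 0.18 (95% interval 0.04 to 0.32), and A2m, the protease inhibitor alpha-2-macroglobulin, with 0.40 (95% interval 0.06 to 0.75). Their adjusted p-values were 0.381 and 0.420 by edgeR. Of the 7 activin and GDF ligands tested, 1 was higher and 0 lower. It was Gdf11, which signals through Smad2 and Smad3, with a log2 fold change of 0.24 (95% interval 0.03 to 0.44; adjusted p = 0.420).

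Of 13 other receptors of the family tested, 1 was higher and 0 lower at p under 0.05, with a median log2 fold change of 0.11. It was Amhr2, the receptor of anti-Müllerian hormone, at 0.161, 0.299 and 0.186 CPM in controls and 0.540, 0.510 and 0.793 CPM in Lhx6-/-. The groups were apart, but the gene had as few as 10 counts in a library, and its interval of the log2 fold change was wide, from 0.30 to 2.71 (edgeR adjusted p = 0.381). Among 21 regulators of the Smads, 0 were higher or lower at p under 0.05 by edgeR and DESeq2, and 1, Ski, by limma voom. Ski, a co-repressor and the gene of the list with the highest CPM, not corrected for length, had a log2 fold change of 0.14 (95% interval -0.01 to 0.30). Among 15 mediators outside the Smad branch the count was also 0 by these 3 tools, and the gene with the highest CPM, the small GTPase Rhoa, had -0.02 (95% interval -0.20 to 0.16). For all 21 and all 15 genes the 95% interval lay within 1.5-fold in both directions.

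Of 29 genes known to respond to TGF-beta in one cell type or another, 8 were higher and 0 lower at p under 0.05, while the median log2 fold change of the list was 0.04. Tgfbi, a matrix protein named for its induction by TGF-beta, rose from 79.9, 94.3 and 79.5 CPM in controls to 154, 123 and 119 CPM in Lhx6-/- libraries. The lowest Lhx6-/- library was above the highest control, and the difference was 1.56-fold (95% interval 1.33 to 1.84; edgeR adjusted p = 0.0299). Lhx6-/- library 1 was the highest, and without it the log2 fold change was 0.52 in place of 0.64. The adjusted p was 0.0836 without that library, 0.0879 without Lhx6-/- library 2, 0.0676 without control library 1 and 0.187 without control library 3. It was 0.332 with the epithelial covariate, where the log2 fold change was 0.67, and 0.168 with the Y-linked covariate, where it was 0.56. The log2 fold change was 0.10 with the endothelial covariate.

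Timp3, an inhibitor of matrix metalloproteinases, was at 142, 157 and 148 CPM in controls and at 189, 187 and 178 CPM in Lhx6-/-, with a log2 fold change of 0.31 (95% interval 0.16 to 0.46; edgeR adjusted p = 0.116). Ccn2 (CTGF), a matricellular protein that TGF-beta induces in fibroblasts, was at 54.1, 50.3 and 50.4 CPM in controls and at 63.1, 62.8 and 56.4 CPM in Lhx6-/- (log2 fold change 0.24, adjusted p = 0.277). Both genes had groups that did not overlap. Edn1, the vasoconstrictor peptide endothelin of endothelial cells, was low, at 1.08, 1.20 and 1.08 CPM in controls and 1.67, 2.03 and 1.87 CPM in Lhx6-/-, and its log2 fold change was 0.73 (95% interval 0.13 to 1.33; edgeR adjusted p = 0.386).

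The other response genes at p under 0.05 were Snai1, a repressor of epithelial genes (log2 fold change 0.35), Col3a1, a fibrillar collagen of soft tissue (0.31), Acta2, the actin of smooth muscle and myofibroblasts (0.23), and Klf10, an early TGF-beta-induced zinc finger factor (0.16). Their adjusted p-values ran from 0.202 to 0.492. Acta2 is also among the pericyte or smooth muscle markers, whose sum was higher in Lhx6-/-. The response genes did not move as a block. Cdkn1a, the cell cycle inhibitor p21, named here with its values in view, had a log2 fold change of -0.17 (95% interval -0.35 to 0.02, edgeR adjusted p = 0.582).

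**Figure D5:**
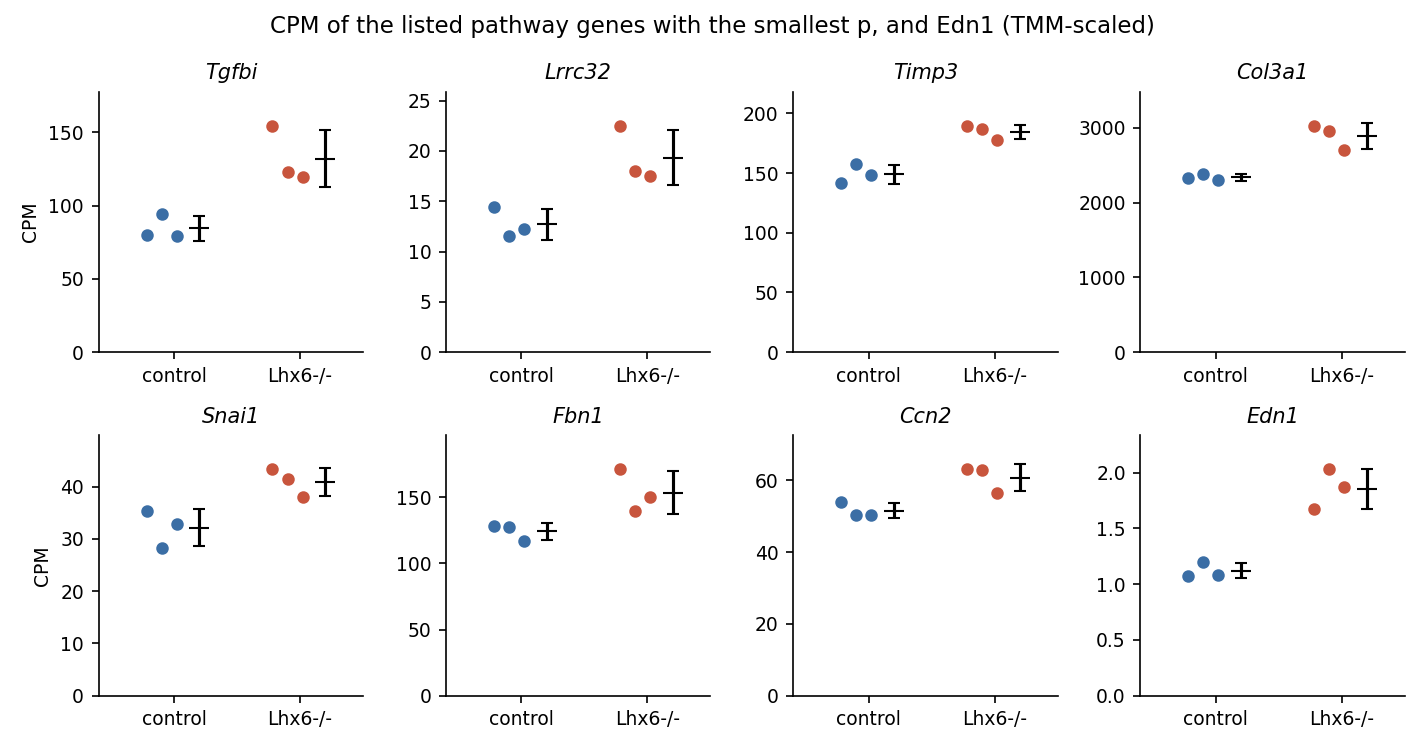
CPM (vertical axis, from 0) in the 3 control and 3 Lhx6-/- libraries of the 7 listed pathway genes with the smallest p and of Edn1; each point is a library and the bar beside it the mean with its SD. In all 8 genes every Lhx6-/- library is above every control library, by the widest margin relative to the level in Tgfbi, Lrrc32 and Edn1.

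The sequences upstream of Tgfbi and Timp3, the response genes with the smallest p, are shown because Smad3 and Smad4 bind the letters CAGAC. The windows searched are the 250 bases before the RefSeq gene start in GRCm38.p6, both on the plus strand. The genes start earlier in the annotation of the deposited table, by 63 bases for Tgfbi and 40 for Timp3, so the bases printed are those before both starts, at chr13:56609336-56609522 for Tgfbi and chr10:86300162-86300371 for Timp3. Matches to CAGAC on either strand (GTCTG on the printed one) are in capitals.
Tgfbi: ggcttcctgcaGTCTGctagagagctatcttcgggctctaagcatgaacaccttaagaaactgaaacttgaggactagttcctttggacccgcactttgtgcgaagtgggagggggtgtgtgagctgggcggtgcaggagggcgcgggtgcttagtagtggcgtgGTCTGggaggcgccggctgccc
Timp3: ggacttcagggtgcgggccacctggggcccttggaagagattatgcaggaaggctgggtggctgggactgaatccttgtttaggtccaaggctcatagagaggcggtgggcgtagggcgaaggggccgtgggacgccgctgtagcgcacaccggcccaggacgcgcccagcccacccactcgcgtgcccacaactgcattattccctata
The Tgfbi window held 2 matches, which begin 239 and 85 bases before the RefSeq start, and the Timp3 window held 0. Such a short motif is common, and 42.2% of the 32851 windows of the same length in the table held it. Of the 15 response genes with a window, 10 held it, and of the 5 core genes with a window, namely Tgfb1, Tgfb2, Tgfbr1, Tgfbr2 and Smad3, it was found in Tgfb2, Tgfbr1 and Tgfbr2. A gene with several windows was counted if any of them held it. Postn and Tgfbr1 each had a window with a match and a window without. These counts of genes are therefore not directly comparable with the 42.2% of windows. A match is a run of letters and not a binding site. The letters TAATTA, a core that LIM-homeodomain proteins can bind, were in 4.84% of all windows and in 0 of the windows of these 5 genes, which says nothing of binding elsewhere.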

How the data were processed

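The authors sequenced each library as single reads of 75 cycles and aligned them to mm10 (GRCm38), with STAR 2.6.1d and Partek named in the submitters' processing notes. The deposited table holds estimated counts per gene, not whole numbers, and whether counting used strand is not given in the sources used here. A second table by the authors holds group means in CPM plus 1, used only to check gene order, and the authors' own fold changes and p-values, not used here. Estimated counts were rounded and fitted with edgeR 4.0.16 (TMM scaling, filterByExpr, robust quasi-likelihood test) on genotype alone, over all 20114 genes that passed the filter, with p adjusted by Benjamini-Hochberg. CPM values in the text are TMM-scaled. The rule of at least 1.5-fold with unadjusted p under 0.05 is that of the study. The members and lists were chosen with earlier results of these data known, and no p was adjusted over a list alone. Named were the 10 genes, every listed pathway gene with p under 0.05, in a list with none the gene with the highest mean CPM, the 3 genes most like the core gene of smallest p, Lhx6, and the gene that leads a marker list; exceptions are marked. Markers were summed. Tested alternatives were other scalings, DESeq2 1.42.0, limma 3.58.1, other filters, covariates and each library left out. Libraries held at least 60132323 counts each. The edgeR procedure was tested on simulated data. Of 67 genes simulated with a 1.5-fold change, 30 met the fold and p rule and 37 had an adjusted p under 0.05. Of 67 with a 2-fold change, 63 and 51 did. Of 19914 simulated without a change, 400 met the fold and p rule and 16 had an adjusted p under 0.05. Exons of Tgfb2, Tgfb3 and Tgfbr3 overlap annotated genes of at most 0.183 CPM. Vasn overlaps Dnaja3 (24.9 CPM) on the same strand. On the opposite strand, Rhoa overlaps Tcta (17.6 CPM), Ccn2 a gene of 4.77 CPM and Timp3 the gene Syn3 (0.967 CPM). Reads of all these may be shared. Promoter sequences are from RefSeq (GRCm38.p6). A window for Tgfb3, Tgfbr3 and Lrrc32 was not used here.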

Additional observations from a re-analysis of the deposited data

How the results depend on the processing

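With 3 libraries a group, the intervals of the core genes reached from -0.20 to 0.42 (log2), and changes inside each gene's interval could go undetected. The 10 core genes gave 0 by the fold and p rule and 0 by adjusted p under all 17 planned refits and the added endothelial covariate, and 1 (Tgfb3) counting p under 0.05 at any fold. The other pathway genes gave 4 by the rule, 15 counting p under 0.05 at any fold, 2 at p under 0.01 with at least 1.5-fold, 1 with the endothelial covariate, and 2 to 4 when a library was left out. The count was 2 without Lhx6-/- library 1, where Lrrc32 and Tgfbi were under 1.5-fold, and 2 without Lhx6-/- library 3, where Amhr2 and Edn1 had p over 0.05. The Y-linked covariate turned the log2 fold change of Tgfb1 to 0.11, Tgfbr1 to -0.14, Tgfbr2 to -0.018, Smad2 to -0.24 and Smad4 to -0.18. The epithelial covariate turned Rhoa to 0.11. The endothelial covariate turned Ltbp4 to -0.15, Gdf11 to -0.019, Ski to -0.014 and Rhoa to 0.091. These marker levels follow genotype in whole or in part, so such fits separate the terms poorly, and the cause was not tested. Leaving out a library moved Tgfb1 between -0.071 and 0.0051, Tgfbr2 between -0.020 and 0.080, Smad2 between -0.049 and 0.12, Smad7 between -0.063 and 0.028 and Rhoa between -0.083 and 0.054. It moved without a turn of sign Smad4 between 0.038 and 0.23, Tgfbr1 between 0.014 and 0.16, Tgfb2 between 0.060 and 0.15 and Ltbp4 between 0.13 and 0.30. Adjusted p under 0.05 was reached by Lrrc32 with DESeq2, the replicate block, the Y-linked covariate and without control library 1, by Fbn1, Col3a1 and Timp3 with DESeq2, and by Snai1 with the Y-linked covariate. The genotypes share replicate numbers in the sample titles, but same-numbered libraries deviated from their group means with correlations of 0.0256, -0.0288 and -0.0314, and a further label numbers the Lhx6-/- libraries from 2 to 4, so the numbers were not taken as litter pairs. With the replicate block the rule gave 0 of the 10 core genes and 4 of the other pathway genes, Tgfb3 had a log2 fold change of 0.24 and Lrrc32 an adjusted p of 0.0241. The 10 intervals stayed within 1.5-fold in every planned edgeR refit but that with the Y-linked covariate, where 9 did, and 4 did with the endothelial covariate.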

Other observations

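The genes below are mainly receptors and Smads of the neighbouring BMP branch, which shares Smad4 with TGF-beta. They were picked with their values in view, so the lack of any edgeR p under 0.05 among them is not a result. Amhr2, of the same receptor list and at p under 0.05, is given above. Bmpr1a, a type I BMP receptor, was at 56.8, 67.6 and 59.1 CPM in controls and 57.8, 64.8 and 69.1 CPM in Lhx6-/- libraries (log2 fold change 0.06, 95% interval -0.13 to 0.25). Bmpr1b, another type I receptor, was under 1 CPM in every library, with a wide interval of the log2 fold change from -0.61 to 1.53. Bmpr2, the type II receptor, had a log2 fold change of 0.11 (95% interval -0.04 to 0.26). Smad1 and Smad5, which BMP receptors phosphorylate, had -0.01 and 0.03, and Smad6, the inhibitor of that branch, had 0.06. Smad9 was at 11.2, 11.3 and 14.5 CPM in controls and 13.7, 14.6 and 15.3 CPM in Lhx6-/-, a log2 fold change of 0.24 (95% interval -0.03 to 0.50, edgeR adjusted p = 0.581). The receptor Acvrl1 and its co-receptor Eng, both used by endothelial cells, had log2 fold changes of 0.18 and 0.17 (edgeR adjusted p = 0.581 and 0.585).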
